A study of Mus musculus with 32 samples.

Results

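The enzymes that write and erase DNA methylation were followed through GATA6-driven differentiation of mouse embryonic stem (mES) cells towards primitive endoderm (PrE). The set holds 9 genes, *Dnmt1*, *Dnmt3a*, *Dnmt3b*, *Dnmt3l*, *Uhrf1*, *Tet1*, *Tet2*, *Tet3* and *Tdg*. They were taken by symbol from the 54233 rows of the deposited gene table, and all 9 were found and passed the filter on low counts, as did 15227 genes in all. Their levels were used in all 32 samples, 4 replicates at each of 8 time points.

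All samples came from a single KH2 mES cell line, labelled as strain C57BL/6, that carries the transgene TRE:GATA6-DSREd2. Doxycycline (Dox) switches this transgene on through a TET-responsive element. Cells at 0 h had received no Dox and grew in 2i medium, which holds LIF and inhibitors of MEK and GSK3. The other cells were moved to serum medium with LIF and 1 µg/ml Dox and collected at 2, 4 or 8 h, or kept in Dox for 12 h and then in serum medium without it until 16, 24, 48 or 96 h. The change of medium and the addition of Dox therefore cannot be told apart in any comparison with 0 h. The study's methods speak of biological replicates, and the labels do not say whether the 4 replicates of a time point were separate cultures, so p-values measure the spread between these samples.

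DNA methylation in mammals sits mostly on the cytosine of CpG dinucleotides. DNMT1 copies it onto the new strand after replication, guided there by UHRF1, which binds hemimethylated DNA. DNMT3A and DNMT3B methylate DNA that carried no mark, and DNMT3L, which has no catalytic activity of its own, stimulates them. The TET enzymes oxidize 5-methylcytosine, and TDG excises the more oxidized forms so that base excision repair can restore an unmodified cytosine. Cells kept in 2i medium are known for low DNA methylation, and in the embryo methylation is low in the blastocyst and is laid down again around implantation. DNA methylation itself was not measured in these samples.

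The promoters of the genes differ in their content of CpG, the substrate of the enzymes they encode. Of 32851 windows of 300 bases around RefSeq transcription starts (250 before the start and 50 after it, GRCm38.p6), the median held 7 CpG, and the quartiles were 3 and 20. All 9 genes matched, with 16 windows between them. The only *Dnmt3b* window held 30 CpG, and the 3 *Dnmt3a* windows held 46, 47 and 18. The 3 *Dnmt3l* windows held 6, 4 and 3, so that the gene with the largest amount of mRNA per kilobase from 8 h on was also the one with the CpG-poorest windows of the de novo group. The 250 bases before the start are shown for *Dnmt3b* and for the *Dnmt3l* windows that overlap no annotated exon, as an example of a CpG-rich and a CpG-poor promoter among genes that were both higher from 4 h on. Each CpG is in capitals.
Dnmt3b, chr2:153649199-153649448, plus strand: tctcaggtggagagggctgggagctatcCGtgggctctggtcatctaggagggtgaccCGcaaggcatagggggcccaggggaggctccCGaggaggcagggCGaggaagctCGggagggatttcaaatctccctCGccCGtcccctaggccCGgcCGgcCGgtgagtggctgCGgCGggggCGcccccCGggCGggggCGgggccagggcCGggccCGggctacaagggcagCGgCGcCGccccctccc
Dnmt3l, chr10:78049592-78049841, plus strand: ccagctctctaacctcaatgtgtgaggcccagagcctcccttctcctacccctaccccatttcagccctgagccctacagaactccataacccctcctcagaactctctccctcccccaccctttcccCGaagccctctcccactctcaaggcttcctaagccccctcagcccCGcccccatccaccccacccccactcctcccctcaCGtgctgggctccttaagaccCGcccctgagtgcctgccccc
Dnmt3l, chr10:78055085-78055334, plus strand: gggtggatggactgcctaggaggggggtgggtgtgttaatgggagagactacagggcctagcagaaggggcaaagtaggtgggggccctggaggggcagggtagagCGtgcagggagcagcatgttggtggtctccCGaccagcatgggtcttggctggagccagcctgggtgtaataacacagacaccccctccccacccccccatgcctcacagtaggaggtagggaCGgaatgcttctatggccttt
The first of these holds 21 CpG, and the others hold 4 and 3. Which start was used cannot be read from counts per gene.

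The maintenance genes *Dnmt1* and *Uhrf1* were the ones with an E2F word, either TTTCGCGC or TTTGGCGC, in a window. E2F factors drive genes of S phase, and each word was searched on both strands. It was found in 2 of the 16 windows and in 0.813% of all windows. The stretches of 30 bases around these words are shown with the word in capitals.
Uhrf1, chr17:56304117-56304146, plus strand: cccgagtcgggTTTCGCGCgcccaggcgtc
Dnmt1, chr9:20952824-20952853, minus strand: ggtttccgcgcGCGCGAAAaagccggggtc
Dnmt1, chr9:20952574-20952603, minus strand: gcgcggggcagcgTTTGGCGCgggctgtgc
A GATA word, read as an A or a T followed by GATAA or by GATAG and searched the same way, occurred in 1 of the 16 windows, an upstream *Dnmt1* start, and in 29.8% of all windows. The E2F words hold CpG, and both windows with such a word held 33 CpG, where the median of all windows was 7. The GATA words hold none. The shares over all windows are therefore not a like comparison, and enrichment or depletion was not tested for either word. A match describes these letters only and is not evidence of binding.

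Between 3190108 and 12301732 reads fell on genes in each sample (median 8870662.5). The lowest number of reads on any of the 9 genes was 26, for *Tet3* in a 0 h sample, so that counting error mattered most for that gene. Levels are given as normalized counts, which are reads divided by a size factor per sample. The replicates formed sets: replicates 1 and 2 resembled each other, as did replicates 3 and 4. The median chi-square per degree of freedom over genes was 1.59 for pairs within a set and 11.4 for pairs between sets. No label names a batch, and the sets are used here only as the replicate numbers give them. Fold changes within each set are given beside the pooled ones for some of the genes in which the sets differed.

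ES cell markers fell and PrE markers rose. The summed normalized count of 7 ES cell markers, among them *Nanog* and *Sox2*, lay between 35911 and 42559 at 0 h and between 3616 and 4355 at 96 h. That of 8 PrE markers, among them *Gata4* and *Sox17*, lay between 628 and 898 at 0 h and between 199306 and 275693 at 96 h. Most of the PrE sum at 96 h came from *Col4a1* (mean 122854) and *Lama1* (80208), beside 6786 for *Gata4* and 1511 for *Sox17*. The ES cell markers with the highest means at 96 h were *Pou5f1* (2051, from 9104 at 0 h) and *Klf4* (1005, from 2258). Fibroblast markers summed to at most 35.5 in any sample, and 4 of the 6, *Col1a2*, *Col3a1*, *Twist2* and *Prrx1*, had at most 4 reads in any sample. The sum of 6 trophectoderm markers lay between 674 and 755 at 0 h and between 245 and 693 at 96 h. Of 5 tested, 2 were higher and 2 lower at 96 h (all genes 38% and 38.5%). Bulk RNA cannot tell fewer cells expressing a gene from less RNA per cell.

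Between 4 and 9 of the 9 genes were called at each time point, 4 at 2 h and 9 at 16, 48 and 96 h, while the share of all genes called also grew. Changes were tested with limma on log2(normalized count + 1) over all 15227 genes, and called at an adjusted p below 0.1. At 2 h, 3 of the 9 were higher than at 0 h (*Dnmt3a*, *Dnmt3l* and *Tet3*) and 1 was lower (*Uhrf1*), where 22.2% of all genes were higher and 22.6% lower. At 4 h, 5 were higher and 1 lower (all genes 24.7% and 23.8%), and 1 of them, *Dnmt3l*, was higher by at least 4-fold, as were 2.69% of all genes. At 8 h, 5 were higher and 1 lower (26.3% and 22.8%), and 4 were higher by at least 4-fold (3.4%).

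At 16 h all 9 genes were called, 6 higher and 3 lower (28% and 25.3%), and the 4 past 4-fold were again *Dnmt3a*, *Dnmt3b*, *Dnmt3l* and *Tet3* (4.03%). At 24 h, 5 were higher and 3 lower (31.2% and 30.7%), with the same 4 genes past 4-fold (4.85%). At 48 h, 5 were higher and 4 lower (36.1% and 37.3%), of which 3 and 1 passed 4-fold (8.48% and 7.09%). At 96 h, 5 were higher and 4 lower (38% and 38.5%), of which 2 and 2 passed 4-fold (9.28% and 10.3%). The share of all genes called was high in each direction at every time point, and the number of calls among the 9 genes says little beside it. From 8 to 24 h, 4 of the 9 genes were past 4-fold. The median log2 fold change of the 9 genes was 0.59 at 16 h and that of all genes 0.01.

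**Figure D1:**
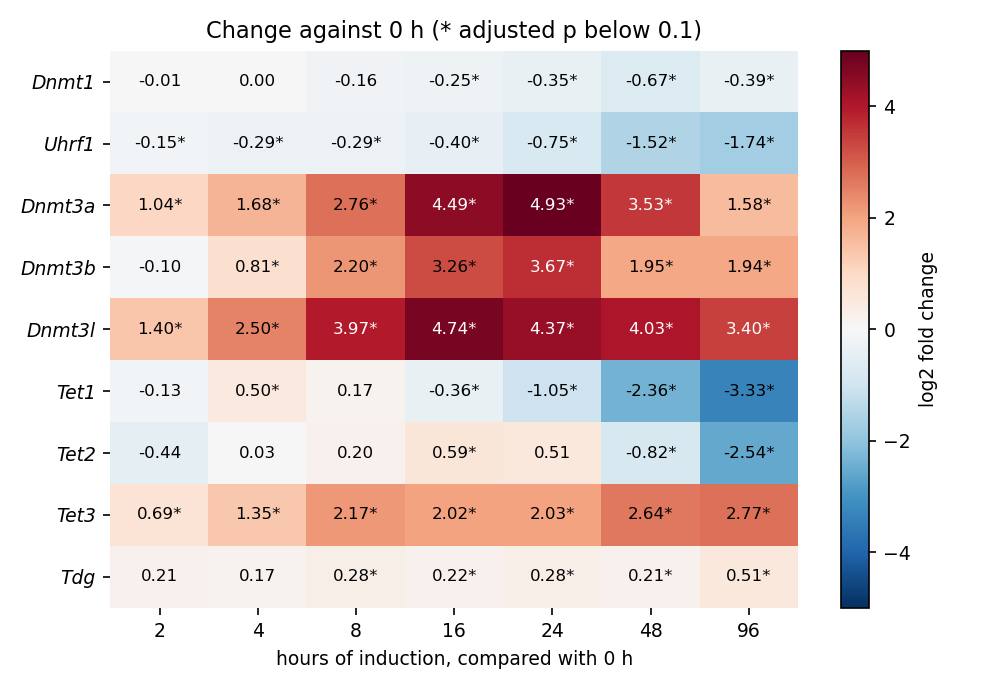
Log2 fold change of each gene (rows) at each time point (columns, hours of induction) against 0 h, with 4 samples per time point; red is higher, blue is lower, and a star marks a limma adjusted p below 0.1. The de novo genes reach 3.26 to 4.93 at 16 and 24 h, while *Tet1* falls to -3.33 and *Tet3* rises to 2.77 at 96 h.

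*Dnmt1* changed least among the methyltransferases. The gene (ENSMUSG00000004099, chromosome 9, 20907209 to 20959888, minus strand) had 2578, 3021, 3288 and 3283 normalized counts in replicates 1 to 4 at 0 h. The 48 h samples held 1713, 1783, 1999 and 2144, and those at 96 h held 2244, 2202, 2469 and 2369. All samples from 24 h on lay below all samples at 0 h, whereas those up to 16 h overlapped with them. The log2 fold change was -0.01 (standard error 0.09, limma adjusted p = 0.97) at 2 h, -0.25 (adjusted p = 0.022) at 16 h, -0.67 (adjusted p = 8.7e-08) at 48 h and -0.39 (adjusted p = 0.00029) at 96 h. The level at 48 h was 62.8% of that at 0 h, and from 48 to 96 h it rose by 0.29 on the log2 scale (limma adjusted p = 0.0085). With each replicate set averaged, the *Dnmt1* calls at 16 h, from 24 to 48 h and from 48 to 96 h were lost (limma adjusted p = 0.22, 0.1 and 0.15). At 8 h its log2 fold change of -0.16 missed the threshold (limma adjusted p = 0.14) and passed it without replicate 1 at 0 h (adjusted p = 0.031) or without replicate 4 at 8 h (adjusted p = 0.086).

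*Uhrf1* fell further than *Dnmt1*, which it recruits. It lies on chromosome 17 (ENSMUSG00000001228, 56303321 to 56323486, plus strand). The 0 h replicates held 4596, 5279, 5748 and 5829 normalized counts, the 48 h replicates 1728, 1739, 1994 and 2019, and the 96 h replicates 1576, 1560, 1621 and 1653. No sample from 16 h on overlapped with those at 0 h, and from 16 h each time point lay below the one before it in every sample. Against 0 h its log2 fold change went from -0.40 at 16 h through -0.75 and -1.52 at the next time points to -1.74 at 96 h (limma, standard error 0.07, adjusted p = 3.5e-20), when 29.9% of the starting level remained. Within replicates 1 and 2 it was -1.65 at 96 h, and within replicates 3 and 4 it was -1.82. The change of -0.15 at 2 h passed the threshold (limma adjusted p = 0.08), but was -0.03 within replicates 1 and 2 and -0.27 within replicates 3 and 4, and the call was lost when any one of replicates 2, 3 and 4 at either time point was left out (largest adjusted p = 0.25, without replicate 4 at 0 h).

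Other genes listed with maintenance were mostly lower. Of the 14 in this list, 11 were lower and 3 higher at 96 h, with a median log2 fold change of -1.19. Among all genes 38.5% were lower and 38% higher. The list is mixed: it also holds *Dppa3*, whose product acts against this step, and genes with other roles, such as *Zfp57* and *Ehmt2*. *Hells* and *Cdca7*, whose products form a nucleosome remodeler needed for maintenance in heterochromatin, were lower at 96 h, with log2 fold changes of -1.15 and -1.90. Falling furthest in this list were *Dppa3*, whose product keeps UHRF1 off chromatin (log2 fold change -4.61, from 80.5 ± 28.1 to 2.80 ± 1.92 normalized counts, SD, n = 4), and *Zfp57*, which protects methylation at imprinted regions (-2.93, from 7333 to 949 normalized counts). *Zfp57* had first risen, to 13195 at 2 h (log2 fold change 0.85), whereas *Cdca7* was already lower at that time, by -1.15. *Uhrf2*, the paralogue of *Uhrf1*, rose from a mean of 278 to 858 normalized counts, which is 1.63 on the log2 scale (limma, standard error 0.08, adjusted p = 1.8e-17). *Ehmt2*, a histone H3 lysine 9 methyltransferase gene, rose by 0.99. Of 18 genes of S phase, 13 were lower and 3 higher at 96 h (all genes 38.5% and 38%; median log2 fold change -0.55), and their summed normalized count lay between 37649 and 39573 at 0 h and between 24318 and 26432 at 96 h. The largest falls in that list were those of *Gins1* (-1.66) and *E2f1* (-1.45), and the largest rises those of *Ccne2* (0.91) and *Cdc6* (0.87). Their part in the falls of *Dnmt1* and *Uhrf1* was not tested.

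The de novo genes rose steeply and then fell. *Dnmt3a* (ENSMUSG00000020661, chromosome 12, 3806007 to 3914443, plus strand) had 275, 337, 134 and 161 normalized counts in the 4 replicates at 0 h. The count was 6386, 6187, 6504 and 6859 at 24 h, its peak, and 740, 677, 570 and 561 at 96 h. Its samples did not overlap with those at 0 h at any later time point. In log2 units it was higher by 1.04 (standard error 0.21, limma adjusted p = 0.00019) after 2 h, by 2.76 after 8 h, by 4.49 after 16 h and by 4.93 (adjusted p = 2.3e-18) after 24 h. After 24 h it fell by 1.40 on the log2 scale to 48 h (limma adjusted p = 1.9e-06) and by 1.95 to 96 h (adjusted p = 7.4e-09), and it was then at 281% of its starting mean. The step from 2 to 4 h, by 0.64 (limma adjusted p = 0.03) and by 0.94 and 0.35 within the sets, lost its call without replicate 2 at 4 h (0.54, adjusted p = 0.1).

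The sets of replicates differed most in *Dnmt3a* at the start, at 4 h and at 8 h. At 0 h the mean of replicates 1 and 2 was 2.08 times that of replicates 3 and 4, at 2 h 0.98 times, at 4 h 1.47 times, at 8 h 1.87 times and at 24 h 0.94 times. The log2 fold change at 2 h was thus 0.50 in the first set and 1.58 in the second. At 24 h these values were 4.36 and 5.50, so that the rise was past 4-fold in both sets.

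*Dnmt3b* followed *Dnmt3a* with a later start. It lies on chromosome 2 (ENSMUSG00000027478, 153649450 to 153687730, plus strand). The 0 h replicates held 700, 887, 579 and 557 normalized counts, the 2 h replicates 673, 715, 571 and 553, and the 4 h replicates 1229, 1209, 1098 and 1163. The samples at 2 h overlapped with those at 0 h, and the log2 difference of -0.10 was not significant (limma adjusted p = 0.52). All samples at 4 h lay above them, by 0.81 on the log2 scale (limma, standard error 0.11, adjusted p = 6.6e-07). At 24 h the count was 8214, 8059, 8779 and 9190, again the highest of the time course and 3.67 above 0 h in log2 units (limma adjusted p = 5.3e-22). The level then fell by 1.73 on the log2 scale to 48 h (limma adjusted p = 2.1e-13). It was held from there, with means of 2586 ± 65.6 (SD, n = 4) at 48 h and 2598 ± 465 at 96 h. Between these time points the sets moved in opposite directions, by -0.25 in replicates 1 and 2 and by 0.23 in replicates 3 and 4, and the pooled change of -0.01 was not significant (limma adjusted p = 0.95).

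*Dnmt3l* reached the highest level per kilobase of the 9 genes, 3692 ± 161 (SD, n = 4) at 16 h, and the largest difference between the sets. The gene (ENSMUSG00000000730, chromosome 10, 78041947 to 78063622, plus strand) had 1284 and 1178 normalized counts in replicates 1 and 2 at 0 h and 139 and 136 in replicates 3 and 4. At 2 h the values were 2816, 2850, 469 and 376, and at 4 h 4381, 4366, 1238 and 1239. The mean of replicates 1 and 2 was 8.94 times that of replicates 3 and 4 at 0 h, and this ratio shrank through 6.71, 3.53 and 1.47 to 1.08 at 16 h. The sets then parted in the other direction without overlap, with ratios of 0.86 at 24 h and 0.79 at 48 h, and the ratio was 0.95 at 96 h. At 16 h, its peak, the 4 samples held 11375, 11513, 10585 and 10653, and at 96 h 4205, 4292, 4437 and 4553.

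The rise of *Dnmt3l* was seen in both sets and its size depended on the set. At 16 h it amounted to 4.74 on the log2 scale with the sets pooled (limma, standard error 0.60, adjusted p = 1.3e-07). The first set gave 3.22 and the second 6.26. The samples at 2 and 4 h overlapped with those at 0 h when the sets were pooled, and did not overlap within either set. The pooled change of 1.40 at 2 h passed the threshold (limma adjusted p = 0.066) and lost the call without replicate 3 or 4 at 0 h or without replicate 1 or 2 at 2 h (adjusted p = 0.27, 0.28, 0.25 and 0.26). From 16 h on it fell at every step in all samples (by 0.37, 0.34 and 0.62 on the log2 scale to 24, 48 and 96 h), but none of these steps passed the pooled test, whose spread includes the sets (limma adjusted p = 0.72, 0.66 and 0.42), while each passed it with either set alone. The rises from 2 to 4 h (1.09, adjusted p = 0.22) and from 4 to 8 h (1.47, sets 0.84 and 2.11, adjusted p = 0.11) likewise missed the pooled limma threshold, and passed it without replicate 1 or 2 at 2 h (adjusted p = 0.095 and 0.093) or at 4 h (0.076 and 0.08). Its exons share 67 bases with *Aire* on the other strand, whose mean was 79.6 normalized counts, and the strand setting of the read counting is not given in the sources used here.

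**Figure D2:**
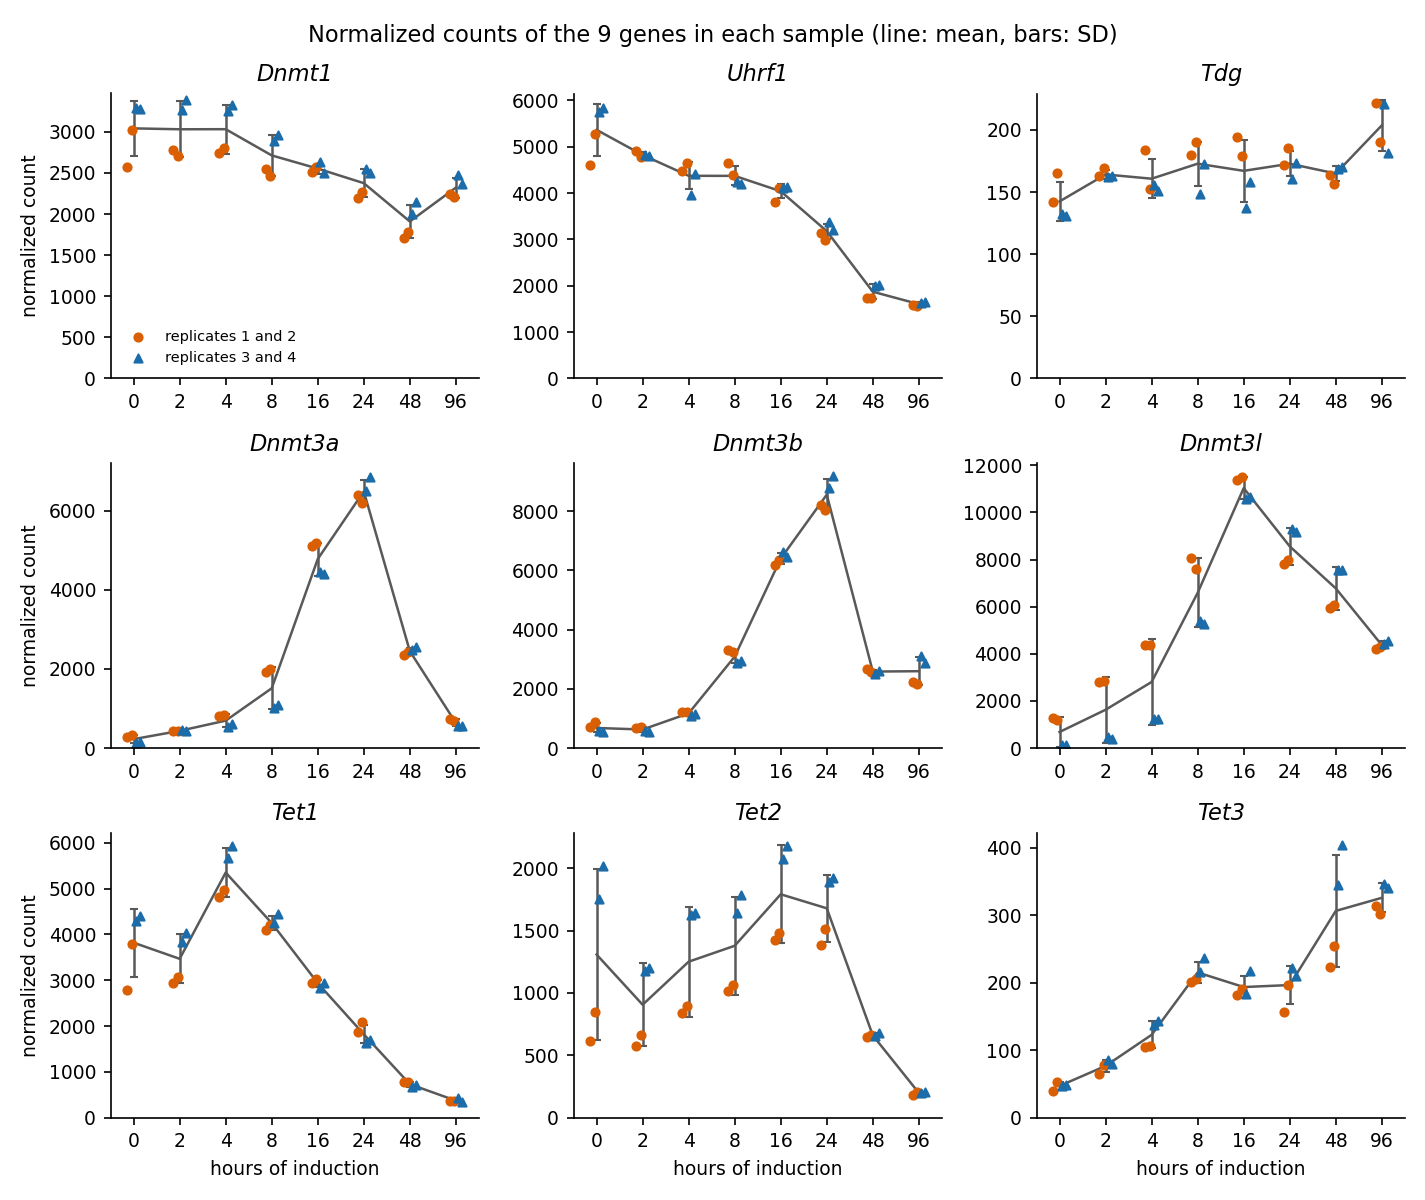
Normalized count (vertical axes, from 0) of each of the 9 genes in every sample against hours of induction, with orange circles for replicates 1 and 2, blue triangles for replicates 3 and 4, and a line with bars for the mean and SD of 4 samples. *Dnmt3a* and *Dnmt3b* peak at 24 h and *Dnmt3l* at 16 h, *Uhrf1*, *Tet1* and *Tet2* end at their lowest level, and *Tet3* and *Tdg* at their highest.

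The 3 de novo genes thus shared one shape with different timing. Over the 8 time point means of log2(normalized count + 1), Pearson's r was 0.929 between *Dnmt3a* and *Dnmt3b*, 0.906 between *Dnmt3a* and *Dnmt3l*, and 0.916 between *Dnmt3b* and *Dnmt3l*. These points share the same 32 libraries, and the values are a description. Between *Dnmt3l* and *Tet3*, which is not a de novo gene, r was 0.881. By the same measure over 10277 genes that reached a mean of 100, those most like *Dnmt3a* were *Wbp11* (0.981), *Mrps30* (0.979) and *Nono* (0.970). Their means spanned a far smaller range, such as 1461 at 0 h and 1902 at 24 h for *Wbp11*. *Hip1* (0.980), *Parm1* (0.979) and *Pbx3* (0.976) were most like *Dnmt3b*, and *Igf2os* (0.987), *Evi5l* (0.986) and *Ftx* (0.985) most like *Dnmt3l*.

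A further list of 8 genes was mixed, and holds *Dnmt3c* and *Trdmt1*, which are not regulators of the de novo genes, beside *Prdm14*. Of the 8 genes 7 were tested, and at 96 h 3 were higher and 4 lower, with a median log2 fold change of -0.29. Among all genes 38% were higher and 38.5% lower. The largest change was in *Prdm14*, a repressor of the *Dnmt3* genes in naive pluripotent cells. The 0 h replicates held 330, 292, 568 and 586 normalized counts, the 2 h replicates 45.7, 55.9, 128 and 107, and the 96 h replicates 2.12, 5.26, 1.26 and 0.95. It was below all 0 h samples in every sample at 2 h, a log2 difference of -2.45 by limma (adjusted p = 3e-06), when *Dnmt3a* and *Dnmt3l* were already called higher and *Dnmt3b* was not. At 0 h the replicates with less *Prdm14*, numbers 1 and 2, were those with more *Dnmt3l* and *Dnmt3a*. At 2 h the mean of replicates 1 and 2 was still 0.43 times that of replicates 3 and 4 for *Prdm14*. This ratio was 6.71 for *Dnmt3l*, 1.23 for *Dnmt3b* and 0.98 for *Dnmt3a* at 2 h. The part of *Prdm14* in the changes of the de novo genes was not tested. *E2f6*, which represses germline genes, rose by 0.98 on the log2 scale at 96 h, and *Zfp281* had a log2 fold change of -0.78. *Trdmt1*, a tRNA methyltransferase gene formerly named as a DNA methyltransferase, rose by 0.46. The rodent-specific copy *Dnmt3c* had at most 13 reads in any sample, and pseudogene copies of *Dnmt3a* and *Dnmt3l* at most 4 and 2.

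**Figure D3:**
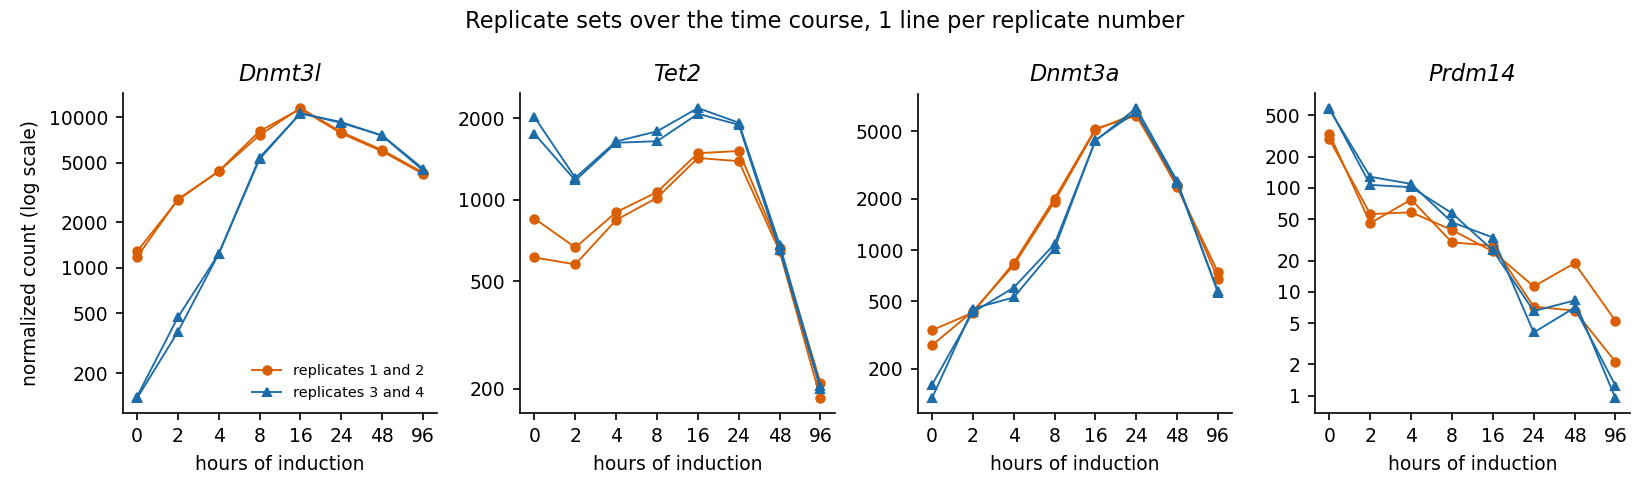
Normalized count (log scale) of *Dnmt3l*, *Tet2*, *Dnmt3a* and *Prdm14* against hours of induction, 1 line per replicate number, with replicates 1 and 2 in orange and 3 and 4 in blue; the choice of genes followed a look at their values. The lines of *Dnmt3l* lie 8.94-fold apart at 0 h, come within 1.08-fold at 16 h and part again the other way at 48 h (ratio 0.79), those of *Tet2* lie apart in the other direction until 24 h, and the set means of both lie close at 96 h (ratios 0.95 and 0.98).

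The TET genes went separate ways. *Tet1* (ENSMUSG00000047146, chromosome 10, 62804570 to 62908996, minus strand) had 2784, 3789, 4301 and 4406 normalized counts at 0 h. At 4 h it had 4814, 4976, 5674 and 5934, and at 96 h 358, 366, 423 and 353. All samples at 4 h lay above all at 0 h, and all samples from 24 h on lay below them. The log2 fold change was 0.50 (standard error 0.11, limma adjusted p = 0.0005) at 4 h, -1.05 at 24 h (sets -0.72 and -1.39), -2.36 at 48 h and -3.33 (adjusted p = 1.6e-21) at 96 h, when 9.81% of the starting mean remained. After 4 h each step down passed the test, by -0.33 from 4 to 8 h (limma adjusted p = 0.048), by -0.53 to 16 h, by -0.70 to 24 h, by -1.31 to 48 h and by -0.97 to 96 h. The step from 4 to 8 h lost the call without replicate 3 or 4 at 4 h or replicate 1 at 8 h (adjusted p = 0.12, 0.14 and 0.11). Averaging each replicate set lost the steps from 4 to 8 h and from 8 to 16 h (limma adjusted p = 0.44 and 0.12). The differences of -0.13 at 2 h and 0.18 at 8 h against 0 h missed the limma threshold and passed it without replicate 1 at 0 h (-0.27, adjusted p = 0.029) and without replicate 4 at 0 h (0.25, adjusted p = 0.084).

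*Tet2* fell only after 24 h in the pooled test. It lies on chromosome 3 (ENSMUSG00000040943, 133463679 to 133545139, minus strand). The 0 h samples held 611, 851, 1751 and 2019 normalized counts, those at 16 h 1425, 1484, 2075 and 2179, and those at 96 h 185, 210, 200 and 204. Replicates 1 and 2 had 0.39 times the mean of replicates 3 and 4 at 0 h and 0.76 times at 24 h, and the sets met at 48 h, with a ratio of 0.98. By 96 h it had fallen in both sets, with a pooled log2 fold change of -2.54 (limma, standard error 0.29, adjusted p = 3.4e-09) and values of -1.87 and -3.21 within the sets. At 48 h it was -0.82 (limma adjusted p = 0.013), but -0.14 in the first set and -1.49 in the second. At 16 h it was 0.59 (limma adjusted p = 0.091), with 1.01 and 0.18 within the sets, and that call was lost without replicate 1 or 2 at 0 h or replicate 3 or 4 at 16 h (adjusted p between 0.19 and 0.43). Changes of -0.44 at 2 h and 0.51 at 24 h that missed the limma threshold passed it without replicate 1 at 0 h (adjusted p = 0.034) and without replicate 3 or 4 at 0 h (adjusted p = 0.047 and 0.023). Relative to 24 h, where all samples lay above those of 48 h, the log2 fold change to 48 h was -1.33 (limma adjusted p = 0.00028).

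*Tet3* was the TET gene that was higher at 96 h. On chromosome 6 (ENSMUSG00000034832, 83362373 to 83459084, minus strand), it had 40.0, 53.0, 46.7 and 49.1 normalized counts at 0 h. At 8 h it had 201, 206, 216 and 237, and at 96 h 314, 302, 346 and 340. From 2 h on, no sample overlapped with those at 0 h. The log2 fold change was 0.69 (standard error 0.15, limma adjusted p = 0.00031) at 2 h, 1.35 at 4 h, 2.17 at 8 h and 2.77 (adjusted p = 7.2e-17) at 96 h. Its level did not change significantly between 8 and 24 h, with log2 fold changes of -0.15 and 0.01 at these steps (limma adjusted p = 0.55 and 0.96), and rose again by 0.61 from 24 to 48 h (adjusted p = 0.00079). Within the sets the log2 fold change was 2.71 and 2.82 at 96 h but 2.35 and 2.93 at 48 h, and from 48 to 96 h the sets moved in opposite directions, by 0.37 and -0.12.

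Compared per kilobase of merged exons, the TET mRNA pool shrank and changed in makeup. The summed normalized count per kilobase of *Tet1*, *Tet2* and *Tet3* was 328 ± 86.4 (SD, n = 4) at the start, 308 ± 21.3 after 16 h, 105 ± 3.91 after 48 h and 55.6 ± 3.07 after 96 h. *Tet1* made up 76.7% ± 6.47 of it at 0 h, and this fell to 51.6% ± 6.30 at 24 h and 43.6% ± 1.80 at 96 h. The share of *Tet3* grew from 0.90% ± 0.21 at 0 h through 5.12% ± 0.56 at 24 h to 35.1% ± 1.49 at 96 h, and the *Tet2* share was highest at 24 h, 43.3% ± 5.83. At 96 h the lowest *Tet1* share, 41.3%, lay above the highest *Tet3* share, 36.9%. With the longest transcript as the length, *Tet3* (38.4%) exceeded *Tet1* (33.5%) at that time point, and *Tet2* (55.6%) exceeded *Tet1* (39.0%) at 24 h, so the order of the 3 genes at these time points rests on the length used.

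Among the methyltransferase genes, the *Dnmt1* share shrank, and that of *Dnmt3l* was above 50% in every sample from 8 h on. The summed normalized count per kilobase of *Dnmt1*, *Dnmt3a*, *Dnmt3b* and *Dnmt3l* was 788 ± 206 (SD, n = 4) at the start, 5579 ± 156 after 16 h and 2325 ± 147 after 96 h. The *Dnmt1* share was 56.0% ± 19.4 at 0 h, ranging from 37.5% to 73.0% with the *Dnmt3l* level of the sets, and 6.21% ± 0.24 at 16 h and 13.5% ± 0.29 at 96 h. *Dnmt3l* made up 25.2% ± 20.5 at 0 h, from 7.47% to 46.1%, so that the highest *Dnmt3l* share lay above the lowest *Dnmt1* share. It was 66.2% ± 1.12 at 16 h and 63.0% ± 2.16 at 96 h. *Dnmt3b* was highest at 24 h, with 31.9% ± 0.79. *Dnmt3a* stayed the smallest or next to smallest part, with at most 7.43% ± 0.34 at 24 h, although its pooled fold change was the largest of the 9 genes.

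**Figure D4:**
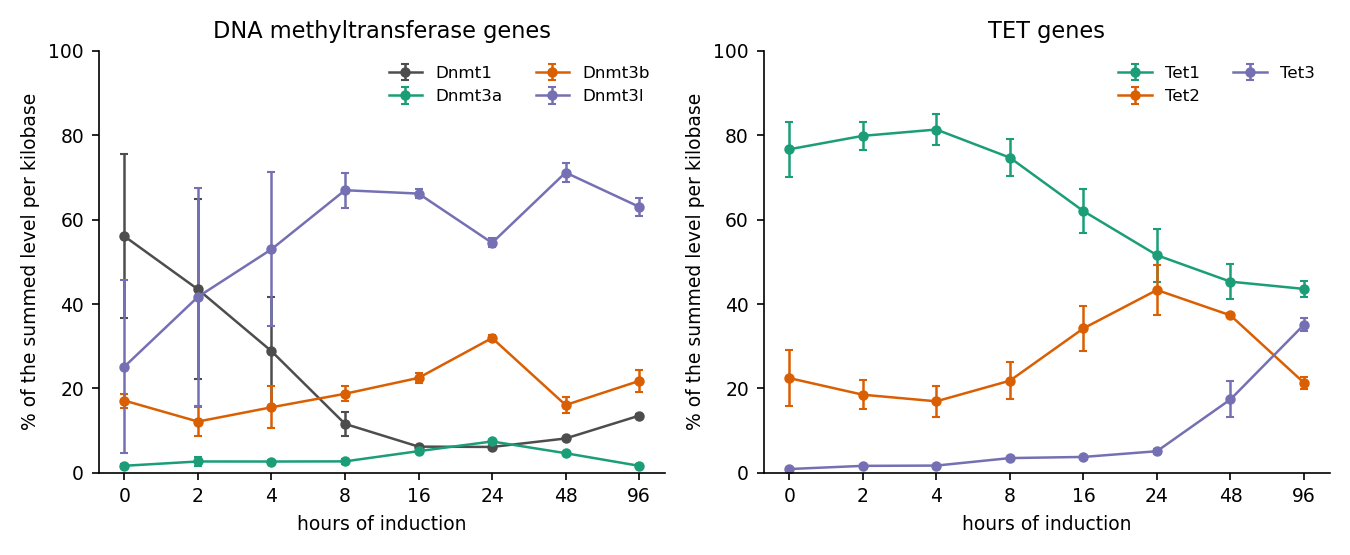
Share (%) of the summed normalized count per kilobase of merged exons held by each methyltransferase gene (left) and each TET gene (right) against hours of induction; points are means and bars SDs of 4 samples. *Dnmt1* falls from 56.0% at 0 h to 6.21% at 16 h, and *Tet3* rises from 0.90% to 35.1% at 96 h.

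Among the genes most like the TET genes by the same measure as above, *2500002B13Rik* (r = 0.998), *Espl1* (0.996) and *Zfp459* (0.996) were nearest to *Tet1*. For *Tet2* they included *Pms1* (0.994) and *Hsd17b4* (0.989), and for *Tet3* *Mon2* (0.993), *Gcnt1* (0.989) and *Bmi1* (0.989). Some of these spanned a far smaller range than the TET gene, such as *Espl1* (means of 1335 at 0 h and 838 at 96 h) and *Mon2* (519 and 864). *Rcc2* (0.996), *Rpl10l* (0.995) and *Sfrp1* (0.995) were nearest to *Uhrf1*, and *Tet1* itself had an r of 0.963 with *Uhrf1*. Regulators of the TET enzymes were called in both directions at 96 h, 4 higher and 4 lower of 8 tested (all genes 38% and 38.5%), with a median log2 fold change of 0.08. *Gadd45g*, one of the GADD45 genes linked to active demethylation, rose from a mean of 7.64 to 246 normalized counts (log2 fold change 4.90), and *Gadd45b* rose by 1.78 (sets 2.499 and 1.065). *Cxxc5*, whose product binds unmethylated CpG and interacts with TET2, had a log2 fold change of -2.98, and *Idh2*, which makes the TET cofactor, one of -0.42 with samples that overlapped.

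*Tdg* varied little. The gene (ENSMUSG00000034674, chromosome 10, 82629828 to 82650799, plus strand) had 142, 165, 132 and 130 normalized counts at 0 h, and 222, 190, 221 and 182 at 96 h. Only at 96 h did all samples lie above those of 0 h, by 0.51 on the log2 scale (limma, standard error 0.10, adjusted p = 5.4e-05). Between 8 and 48 h the log2 fold changes of 0.22 to 0.28 passed the threshold (adjusted p between 0.021 and 0.077) although the samples overlapped. Averaging each replicate set lost the calls at 8, 16, 24 and 48 h (limma adjusted p = 0.2, 0.29, 0.15 and 0.23). The calls at 8, 16 and 48 h also did not hold without every sample. That at 8 h was lost without replicate 2 at 8 h (adjusted p = 0.1), that at 16 h without replicates 1, 3 or 4 at 0 h or 1 or 2 at 16 h, and that at 48 h without replicates 3 or 4 at either time point. Differences of 0.21 at 2 h and 0.17 at 4 h missed the threshold, and passed it without replicate 2 at 0 h (limma adjusted p = 0.041 and 0.068). Its exons share 367 bases with *Glt8d2* on the other strand (mean 1.36 normalized counts), and its pseudogene *Tdg-ps* had at most 11 reads in any sample.

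Genes of base excision repair, the process that completes the work of TDG, were lower in part at 96 h. The list also holds other glycosylases, such as *Ung*, which start repair as TDG does and do not complete its work. Of 12 genes, 8 were lower and 2 higher at 96 h (all genes 38.5% and 38%), with a median log2 fold change of -0.86 against -0.03 for all genes. *Ung*, which removes uracil from DNA, had a log2 fold change of -2.33 and *Parp1*, which senses strand breaks, one of -1.98, while *Lig3* and *Polb*, which seal and fill the repaired gap, rose by 1.02 and 0.90. The supply of methyl donors moved in the same direction: 6 of 8 genes were lower and 1 higher (all genes 38.5% and 38%, median -0.58), led by *Shmt2* (-1.54) and *Mat2b* (-1.36), with *Mtrr* higher by 0.60. Of 7 readers of methylated CpG, 4 were higher and 1 lower (all genes 38% and 38.5%; median 0.19). The higher ones were *Mbd2* (1.74), *Zbtb4* (1.26), *Zbtb33* (0.48) and *Mbd1* (0.19), and *Zbtb38* (-1.15) was the lower one. The samples of *Mbd1* and *Zbtb33* overlapped with those at 0 h, and *Mbd1* changed by 0.39 in replicates 1 and 2 and by -0.01 in replicates 3 and 4.

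Genes of the germ line, many of which carry CpG-rich promoters that DNA methylation keeps silent in somatic cells, were called higher in part at 16 h and mostly lower at 96 h. Of 16 listed genes, 14 were tested. At 16 h, 8 were higher and 1 lower than at 0 h (all genes 28% and 25.3%, median log2 fold change 0.73), and at 96 h 0 were higher and 11 lower by limma (all genes 38% and 38.5%, median -1.09 against -0.03). At 96 h 3 of the 16 had at most 3 reads in every sample. The largest falls were those of *Dazl*, from a mean of 176 to 2.66 normalized counts (log2 fold change -5.57), and of *Fkbp6*, from 472 to 35.4 (-3.71). *Dazl* was at 221 at 16 h, a log2 fold change of 0.31 that was not significant (limma adjusted p = 0.34). Whether DNA methylation had a part in the changes of the germline genes was not tested.

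Between neighbouring time points, the largest number of calls fell between 24 and 48 h, for the 9 genes as for all genes. From 2 to 4 h, 4 of the 9 genes were higher and 0 lower at an adjusted p below 0.1, where 13.6% of all genes were higher and 10.9% lower. From 4 to 8 h, 3 were higher and 1 lower (9.51% and 7.57%), and from 8 to 16 h 2 were higher and 1 lower (9.44% and 10.6%). From 16 to 24 h, 1 was higher and 2 lower (13.3% and 14.8%). From 24 to 48 h, 6 were lower and 1, *Tet3*, was higher (29.8% of all genes higher and 27.8% lower). The 6 were *Dnmt1*, *Uhrf1*, *Dnmt3a*, *Dnmt3b*, *Tet1* and *Tet2*, and in 7 of the 9 genes, these and *Dnmt3l*, all samples at 48 h lay below all at 24 h. From 48 to 96 h, *Dnmt1* and *Tdg* were higher and *Uhrf1*, *Dnmt3a*, *Tet1* and *Tet2* lower (27.3% and 27.2%).

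Ordered by level, the time points of each gene differed in how well they separated. *Dnmt3a* ran from 24 h (mean 6484) through 16 h (4776), 48 h (2449), 8 h (1511), 4 h (694), 96 h (637) and 2 h (436) to 0 h (226), and only its neighbours 4 and 96 h overlapped. *Uhrf1* ran from 0 h (5363) through 2 h (4821), 4 h (4371), 8 h (4370), 16 h (4038), 24 h (3177) and 48 h (1870) to 96 h (1602), with overlaps between 0 and 2 h and between 4 and 8 h. For *Tet1*, 4 h (5350) stood above the rest, the means of 8, 0, 2 and 16 h (4248, 3820, 3468 and 2938) overlapped with their neighbours, and 24, 48 and 96 h (1823, 734 and 375) were each separate. In *Dnmt1* only 48 h (1910) was separate from its neighbour, 96 h (2321), and in *Tet2* only 96 h (200) was separate from 48 h (661). All neighbours overlapped in *Tdg*.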

How the data were processed

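Libraries were made with a stranded poly(A) mRNA kit and sequenced single-end. The authors used cutadapt 2.7 for trimming, HISAT2 2.1.0 with the GRCm38.p6 genome for alignment and featureCounts (Subread 1.6.4) with GENCODE genes for counting. The values they deposited are log2 values from the variance-stabilizing step of the authors' DESeq2 run, scaled by size factors. The handling of reads that map to several places is not given in the sources used here. The deposited log2 values were turned back into normalized counts, and 100% of these were a whole number of that sample's smallest step, so whole reads were recovered (largest distance 3.9e-09, tolerance 1e-06). Sample groups and replicate numbers came from the sample titles, and no per-sample column was left out.

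Genes that reached 10 normalized counts in 4 or more samples were tested with limma 3.58.1 (R 4.3.3; eBayes with trend) on log2(normalized count + 1), a scale that understates changes of low genes, in 1 fit of all 32 samples. P-values were adjusted by Benjamini-Hochberg over all genes tested and called below 0.1. The fit was also run on simulated reads with known changes. These held no replicate sets, so the run does not bear on the spread between the sets. Merged exon lengths and coordinates came from GENCODE M21 (GRCm38). Alternatives were the pseudocount, filters, TMM scaling, limma-voom on whole reads, the deposited values as they stand, the samples and sets in the fit, the replicate number as a block, FDR 0.05 and leaving out each sample. The genes and lists were chosen with earlier results of these data known. Genes named outside the 9 were, per list, the 2 largest rises and 2 largest falls called at 96 h (every called gene where 5 or fewer were called), and the 3 genes nearest by Pearson's r over time point means to each of the 9 whose means span at least 1 on the log2 scale (1 of these genes is not reported here); *Hells*, *Cdca7* and marker genes were added after their values were seen.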

Additional observations from a re-analysis of the deposited data

Results flagged for a closer look

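In 72 groups of 4 samples (9 genes at 8 time points), 2 held a sample far from the other 3 by Dixon's test, which chance alone does in about 1 in 20 groups. *Uhrf1* at 16 h had 3805 normalized counts in replicate 1, and the nearest other sample had 4108 (gap over range 0.948). *Tdg* at 4 h had 184 normalized counts in replicate 1, and the nearest other sample had 156 (gap over range 0.857).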

How the results depend on the processing

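Of 51 changes against 0 h that were called, out of 63, 39 kept their call and direction under every alternative run and without each sample, and 6 lost it without some sample. Averaging each replicate set lost 10 of the 51, testing replicates 1 and 2 alone lost 7, no filter on low values 5, only the samples of the 2 time points 5, limma-voom 2 and replicates 3 and 4 alone 1, whereas a pseudocount of 5, a mean count of at least 50, TMM and the deposited values lost 0. Of 27 calls between neighbouring time points from 2 h on, out of 54, 17 were kept throughout, 2 were lost without some sample and 10 with averaged sets. *Uhrf1* from 2 to 4 h passed the threshold without replicate 2 at 4 h (adjusted p = 0.097). Why calls were lost was not tested, other than that averaging leaves fewer values.

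With the replicate number as a block, 0 of the 51 calls were lost, and members lower than at 0 h went from 1 to 2 at 2 h and at 8 h, and those higher from 3 to 4 at 2 h and from 5 to 6 at 24 h. Stepwise counts under the block were 5 higher and 1 lower from 2 to 4 h, 4 higher and 2 lower from 4 to 8 h, and 2 higher from 16 to 24 h. With averaged sets 0 calls were gained. Same-numbered samples deviated together with a mean correlation of 0.196 (lowest -0.04), the other number of the set with 0.196, and 15 of 32 samples correlated best with their own number, so the pairing by number was not established.

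The number lower at 2 h (1) was 0 with no filter, with the 2 time points only, with averaged sets and at FDR 0.05, 3 in replicates 3 and 4 alone, and 0 to 3 without single samples. The number lower at 4 h (1) was 0 in replicates 1 and 2 and 2 in replicates 3 and 4. The number lower at 8 h (1) was 2 with TMM, 3 in replicates 3 and 4, and 1 to 2 without single samples. At 16 h, averaged sets left 1 of 3 lower. From 2 to 4 h, averaged sets left 2 of 4 higher, and 1 instead of 0 was lower in replicates 3 and 4 (0 to 1 without single samples). From 4 to 8 h, 0 were lower with averaged sets, 2 in replicates 3 and 4, and 0 to 1 without single samples. From 8 to 16 h each set alone gave 4 higher and 2 lower, and averaged sets 0 lower. From 16 to 24 h each set alone gave 2 higher and 4 lower, limma-voom and the 2 time points only 2 higher, and averaged sets 0 higher. From 48 to 96 h averaged sets left 0 of 2 higher. Among changes called in all samples or in the alternative, directions turned in replicates 3 and 4 alone for *Dnmt3b* from 48 to 96 h (0.227), *Tet2* at 4 h (-0.205) and *Tet2* at 8 h (-0.134). With the longest transcript as length, an alternative added after the data were seen, *Tet1* made up 66.2% of the TET level at 0 h, *Tet3* 38.4% at 96 h and *Dnmt1* 5.14% of the methyltransferase level at 16 h. Shares without single samples were 50.4% to 62.2% for *Dnmt1* at 0 h, 6.10% to 6.27% at 16 h, 74.8% to 78.9% for *Tet1* at 0 h and 34.5% to 35.7% for *Tet3* at 96 h. Counting per gene cannot separate isoforms, and intervals of low genes such as *Tet3* (26 reads at the lowest) are limited by depth.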
